A study of Mus musculus with 2 samples.

Results

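The 40 genes described here are imprinted in the mouse or lie within an imprinted domain, 40 of the 32285 genes in the count matrices. They were taken from general knowledge of mouse imprinted domains, with earlier results of these data known. Of the 40, 20 are usually expressed from the paternal allele and 12 usually from the maternal allele. The other 8 have an allele that depends on the tissue or is unsettled. The study examined how loss of the DNA methyltransferase DNMT1 from migrating *Sst* interneurons affects the developing mouse cortex. The 2 libraries used here are wild-type embryos at E16.5, numbered 4 and 5, titled EoMltt3 and described in the design text as controls of an EomesMllt3 line; the strain background was C57BL/6J. Cells from papain-treated cortex, listed by the labels as brain hemispheres, were counted by their transcripts' 3′ ends with 10x v3.1 chemistry. The 2 titles share a number that stands before the embryo number, and its meaning is not given. Both embryos are of a single age and genotype, and their sex and litter are not given. Every comparison here is therefore between cell classes within these 2 animals.

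Genomic imprinting is expression of a gene mainly or only from the chromosome inherited from the mother or from the father, set by DNA methylation laid down in the germ line. Imprinted genes lie in clusters under shared control regions, and many act in fetal growth, in the placenta and in the brain. The counts do not separate the alleles, so each value is the sum of both, and the usual allele of a gene is background knowledge.

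Embryo 4 held 12825 barcodes with 124318613 UMIs, a median of 9355 per barcode, and embryo 5 held 12289 with 117679925, a median of 8853. After removal of barcodes with few genes, many mitochondrial counts or doublet-like profiles, 9932 cells of embryo 4 (median 10010.5 UMIs) and 10416 of embryo 5 (median 8799.5) remained. Clusters of cells were named from markers, and the names stand for likeness in expression: radial glia-like cells (RGCs), intermediate progenitor-like cells (IPCs), excitatory neuron-like, interneuron-like and vascular-like cells, written without the suffix from here on. RGCs numbered 1357 and 1432 in embryos 4 and 5, IPCs 896 and 943, excitatory neurons 5636 and 6028, interneurons 1384 and 1282 and vascular cells 78 and 135. Imprinted genes were kept out of the clustering. Unless said otherwise, a pair of values gives embryo 4 and then embryo 5, and CPM is the gene's UMIs scaled to 1000000 UMIs of the class.

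Marker sums describe the classes, each given in its class and, as the highest sum elsewhere, in the other classes and vascular subtypes. The clusters were named by these same marker lists, so high sums in the own class follow from the naming and are no separate check. The 10 RGC markers, led by *Fabp7*, summed to 7062 and 6901 CPM in RGCs and to at most 2425 in fibroblasts of embryo 5. The 9 IPC markers, with *Eomes*, summed to 2863 and 2827 in IPCs and to at most 626 in RGCs of embryo 4. The 10 excitatory markers, with *Neurod2* and *Neurod6*, summed to 6284 and 6318 in excitatory neurons and to at most 1697 in IPCs of embryo 4. Interneuron markers, with *Gad1* and *Dlx1*, summed to 3343 and 3506 in interneurons and to at most 128 in endothelial cells of embryo 4. Within the vascular class, endothelial markers such as *Cldn5* summed to 7806 and 7200.1 in endothelial cells, mural markers such as *Rgs5* to 9613 and 7186 in mural cells and fibroblast markers such as *Col1a1* to 4031 and 4419.6 in fibroblasts; elsewhere these reached 379 in mural cells of embryo 5, 978 in fibroblasts of embryo 5 and 675 in mural cells of embryo 5. No marker of a list was at 0 in its own class. Interneurons held 683 and 658 cells like those of the medial ganglionic eminence (MGE) and 193 and 152 like those of the caudal eminence (CGE). The other 508 and 472 had markers of the lateral eminence (LGE-type), which is not a source of cortical interneurons in the usual account. The design text names the cerebral cortex as the tissue dissected, and whether it included part of the ganglionic eminences is not known.

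The make-up of the vascular class differed between the embryos. Endothelial cells numbered 23 and 34, mural cells 52 and 50 and fibroblasts 3 and 51, so fibroblast RNA enters the vascular sum of embryo 5 far more than that of embryo 4. Values in these subtypes stand beside most vascular results of members, and a fibroblast value of embryo 4 rests on 3 cells. The 2 libraries share 46 barcodes, of which 36 and 35 were kept, and leaving these out ended no call. *Hbb-bs*, a haemoglobin gene of red cells, was at 171 and 1710.3 CPM in IPCs and 411 and 859.7 in excitatory neurons, which should lack it. Reads in an overlap cannot always be assigned to a gene. *Snhg14* and *Snrpn* overlap on the same strand. On opposite strands, *Snhg14* overlaps *Ube3a*, *Airn* overlaps *Igf2r*, *Rtl1* overlaps *Meg3* and *Rian*, and *Copg2* overlaps *Mest*. *Blcap* overlaps *Nnat* and *Commd1* overlaps *Zrsr1*, also on opposite strands, and *Trappc9* overlaps *Peg13*. How far the strand of a read separates the opposite-strand pairs was not tested.

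Sums per embryo and class were compared in edgeR with a quasi-likelihood test, and a gene was called at an adjusted p (Benjamini-Hochberg over all 16637 tested genes) under 0.05. Log2 differences come from this fit, which scales libraries by TMM, so they can depart from the ratio of the CPM values. A value without an embryo is no refit: it is the contrast of the other embryo's TMM-scaled log2 CPM with a small prior count. Where a class is at or near 0, such a value can lie nearer 0 than the fitted one. The SE beside each is the absolute log2 difference divided by the square root of the test's F statistic. Where a class is at 0, it is no usual standard error of the difference. Of the 40 members, *Phlda2* and *Slc22a18* had too few UMIs to be tested. In vascular cells against the mean of the 4 neural classes, 20 of the 38 tested members were higher and 10 lower (78.9% called), where 27.0% and 25.2% of all tested genes were (52.2% called). In the mean of both neuron classes against the mean of both progenitor classes, 22 were higher and 5 lower (71.1% called), where 36.3% and 31.9% of all tested genes were (68.2% called). In IPCs against RGCs, 13 were higher and 10 lower (60.5% called), where 21.0% and 21.4% of all tested genes were (42.4% called). In excitatory neurons against IPCs, 18 were higher and 4 lower (57.9% called), where 27.5% and 24.5% of all tested genes were (52.0% called). With the embryo as a block, 7 members were lower there. In interneurons against excitatory neurons, 19 were higher and 2 lower (55.3% called), where 14.0% and 17.6% of all tested genes were (31.5% called). Interneurons arise outside the cortex, so this compares classes and is no step of a lineage. These counts are a description of where members are high. In the order given, the median log2 difference of the members was 0.91, 0.71, 0.06, 0.39 and 0.64, and that of all tested genes -0.08, 0.06, -0.01, 0.03 and -0.02; setting members with a class at 0 to a floor of 3 UMIs, or to 0 where this turned the sign, left the members' medians as they were. Of 123 member and contrast pairs called, the direction was the same in both embryos alone in all but the vascular difference of *Peg3*. A call that rests on 2 embryos favours agreement between them, so this count is a description.

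Of the 38 tested members, 36 were called in at least 1 contrast (88.7% of all tested genes were), 10 in all 5 (8.05% of all tested genes were), and *Zrsr1* and *Trappc9* in none. By mean CPM, 20 members were at their highest in vascular cells, 17 in interneurons, 2 in IPCs, 1 in RGCs and 0 in excitatory neurons. The 20 include the barely detected *Phlda2* and *Slc22a18*. These counts by highest class were not set against all tested genes. For 26 of the 40, both embryos' values in the highest class lay above all values of the other classes, as they did for 65.3% of all tested genes. Among the neural classes alone, 27 were highest in interneurons, 8 in RGCs, 4 in IPCs and 1 in excitatory neurons. This tally too was not set against all tested genes, so it describes the members alone. Members made up 0.310% and 0.299% of UMIs in RGCs, 0.317% and 0.309% in IPCs, 0.443% and 0.444% in excitatory neurons, 0.929% and 0.816% in interneurons and 1.03% and 0.863% in vascular cells. Within the vascular class, mural cells held 1.12% and 0.979%, fibroblasts 1.23% and 0.967% and endothelial cells 0.380% and 0.485%, the last near the level of excitatory neurons. With LGE-type cells left out of the interneurons, 12 members instead of 19 were higher than in excitatory neurons (13.5% of all tested genes instead of 14.0%), and in endothelial cells alone 10 instead of 20 were higher than in the neural classes (14.6% of all instead of 27.0%). In IPCs 13 members were higher than in RGCs, 8 with cells of at least 500 genes kept and 3 with doublets kept, and of all tested genes 21.0%, 18.5% and 13.8%.

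**Figure D1:**
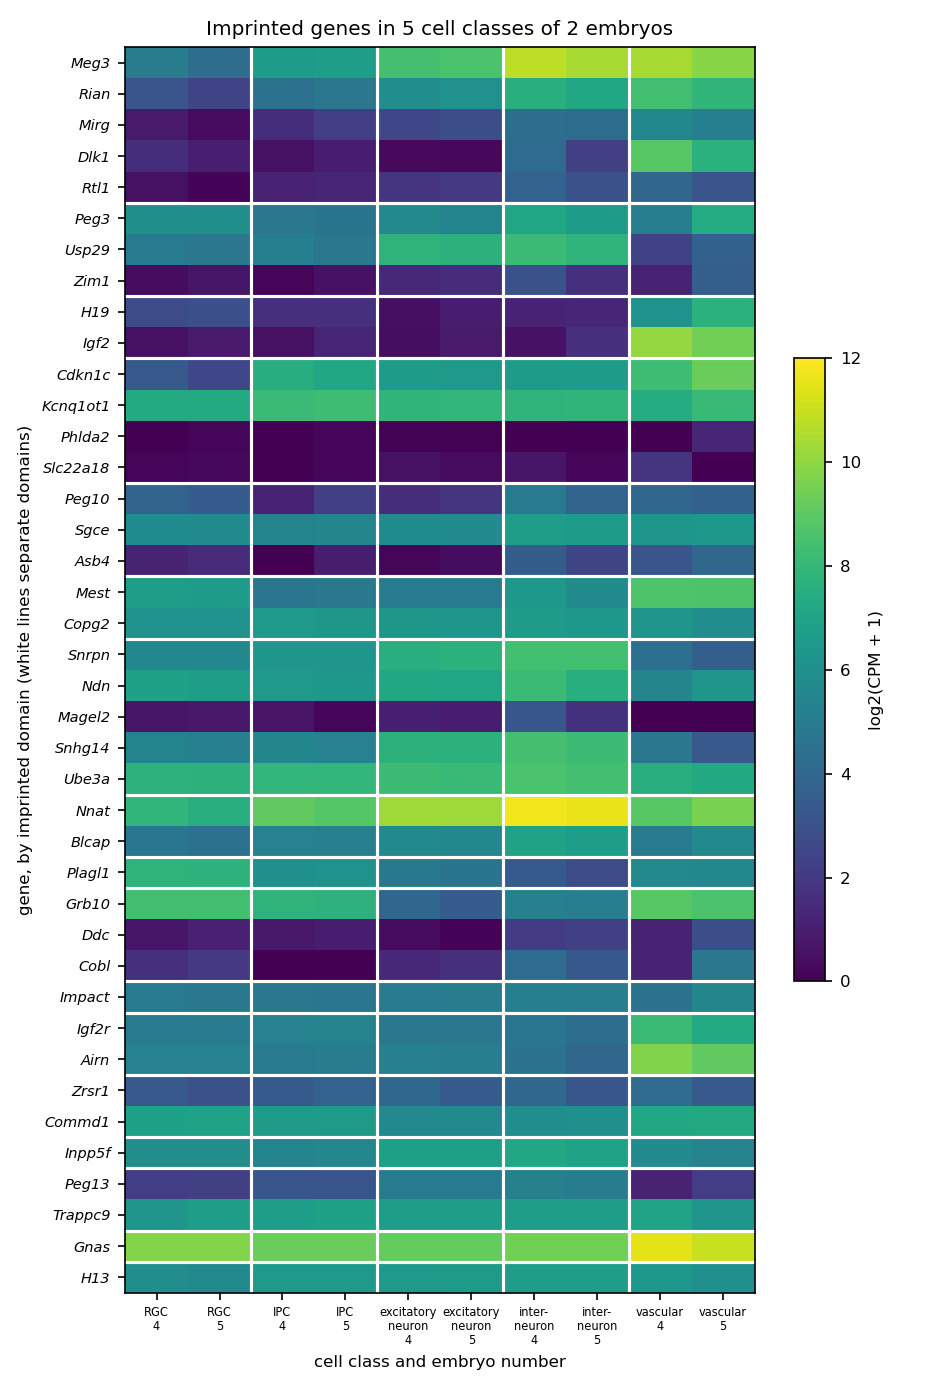
Level of the 40 members, as log2 of CPM + 1, in the 5 classes of each embryo. White lines separate the imprinted domains.

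In the *Dlk1* and *Meg3* domain on chromosome 12, *Meg3*, *Rian*, *Mirg* and *Rtl1* were each called higher in all 4 neural contrasts. The share of all tested genes called higher in all 4 was not counted. The contrast of neurons against progenitors is a weighted sum of the other neural contrasts. A gene higher in those is thus higher in it too, and the 4 are not separate results. *Meg3*, a maternally expressed long noncoding RNA, was at 31.8 and 18.8 CPM in RGCs, 96.3 and 104 in IPCs, 351 and 387 in excitatory neurons, 1789.7 and 1362 in interneurons and 1395 and 929 in vascular cells. Its level was lowest in RGCs of both embryos, higher in IPCs and excitatory neurons and highest in interneurons. The log2 difference of *Meg3* was 4.05 (SE 0.18, edgeR adjusted p = 7.82e-09) in neurons against progenitors and 2.07 (SE 0.24, adjusted p = 6.83e-05) in IPCs against RGCs. It was 2.04 (SE 0.23, edgeR adjusted p = 2.95e-05) in excitatory neurons against IPCs and 1.95 (SE 0.23, adjusted p = 7.92e-05) in interneurons against excitatory neurons. In vascular cells it was 2.45 (SE 0.16, edgeR adjusted p = 3.91e-07) against the neural classes. Endothelial cells departed from the rest of the vascular class. Mural cells held 1675 and 1488 CPM and fibroblasts 849.7 and 898, while endothelial cells held 49.2 and 28.5 and, taken alone, were lower than the neural classes (-2.73). Deep-layer excitatory neurons held 836 and 869.9 CPM and upper-layer ones 137 and 172, and LGE-type cells 2463 and 1625 against 1213 and 1073 in MGE-type cells. With doublets kept, the IPC difference of *Meg3* turned to -0.14.

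*Rian*, a noncoding RNA of the same strand that hosts small nucleolar RNAs, was at 8.01 and 4.74 CPM in RGCs, 22.1 and 26.4 in IPCs, 58.97 and 65.8 in excitatory neurons, 180.3 and 147 in interneurons and 331 and 231 in vascular cells. The order of the classes was that of *Meg3* except that vascular cells stood above interneurons in both embryos. *Rian* differed by 3.15 (SE 0.15, edgeR adjusted p = 1.26e-08) in neurons against progenitors and 2.001 (SE 0.24, adjusted p = 7.98e-05) in IPCs against RGCs. Its other neural differences were 1.53 (SE 0.19, edgeR adjusted p = 7.04e-05) in excitatory neurons against IPCs and 1.24 (SE 0.17, adjusted p = 0.000288) in interneurons against excitatory neurons, and the vascular difference was 2.85 (SE 0.16, edgeR adjusted p = 1.19e-07). *Rian* was at 9.84 and 6.33 CPM in endothelial cells against 388 and 406 in mural cells, and endothelial cells alone turned its vascular difference to -2.49. *Mirg*, which hosts microRNAs, was at 0.847 and 0.271 CPM in RGCs, 1.97 and 3.66 in IPCs, 4.93 and 6.38 in excitatory neurons, 18.9 and 17.7 in interneurons and 47.7 and 34.9 in vascular cells. Both embryos had the lowest *Mirg* level in RGCs and the highest in vascular cells. *Mirg* rose by 3.14 (SE 0.25, edgeR adjusted p = 8.61e-07) in neurons against progenitors and 2.37 (SE 0.49, adjusted p = 0.00286) in IPCs against RGCs. It rose by 1.18 (SE 0.32, edgeR adjusted p = 0.00961) in excitatory neurons against IPCs and 1.55 (SE 0.24, adjusted p = 0.000684) in interneurons against excitatory neurons, and by 3.38 (SE 0.30, edgeR adjusted p = 4.04e-06) in vascular against neural cells. Without embryo 4 the IPC difference of *Mirg* was 3.70 and without embryo 5 it was 1.27, with a vascular difference of 3.62. The IPC calls of *Rian* and *Mirg* were lost with doublets kept; that of *Mirg* also with cells of at least 500 genes, at most 5% mitochondrial counts, a finer clustering or thinned cells, and its call in excitatory neurons against IPCs with thinned cells or with each cell assigned by its own markers.

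*Dlk1*, a paternally expressed membrane protein related to Notch ligands, was at 1.95 and 1.02 CPM in RGCs, 0.438 and 0.977 in IPCs, 0.224 and 0.187 in excitatory neurons, 17.2 and 3.82 in interneurons and 465 and 205 in vascular cells. It was near 0 in progenitors and excitatory neurons, present in interneurons and far higher in vascular cells. The vascular difference of *Dlk1* was 7.91 (SE 0.41, edgeR adjusted p = 6.56e-08), and that of interneurons 5.51 (SE 0.76, edgeR adjusted p = 0.000267). Mural cells held 567 and 439 CPM, fibroblasts 217 and 94.4 and endothelial cells 0 and 0. Within interneurons, *Dlk1* was at 36.9 and 8.05 in LGE-type, 1.73 and 0.228 in MGE-type and 10.9 and 6.82 in CGE-type cells, and without embryo 4 the interneuron difference was 4.05. *Rtl1*, a paternally expressed gene derived from a retrotransposon, was at 0.456 and 0.0677 CPM in RGCs, 1.20 and 1.34 in IPCs, 2.52 and 2.97 in excitatory neurons, 12.9 and 6.93 in interneurons and 14.6 and 7.83 in vascular cells. Its values were lowest in RGCs and highest in interneurons and vascular cells of both embryos, in the pattern of *Meg3*, whose annotation it overlaps on the other strand. *Rtl1* rose by 3.27 (SE 0.36, edgeR adjusted p = 1.23e-05) in neurons against progenitors and 2.31 (SE 0.71, adjusted p = 0.0233) in IPCs against RGCs, and by 1.27 (SE 0.47, edgeR adjusted p = 0.0418) in excitatory neurons against IPCs and 1.71 (SE 0.35, adjusted p = 0.00400) in interneurons against excitatory neurons. Its vascular difference was 2.48 (SE 0.52, edgeR adjusted p = 0.00226), 2.68 without embryo 5, and the call was lost with thinned cells; *Rtl1* was at 15.1 and 11.2 CPM in mural cells and 0 and 0 in endothelial cells. Without embryo 4 the IPC difference of *Rtl1* was 3.89 and without embryo 5 it was 1.43; its difference in interneurons was 1.08 without embryo 4, and that in excitatory neurons against IPCs 1.20 without embryo 5. The IPC and excitatory calls of *Rtl1* were lost with cells of at least 500 genes, at most 5% mitochondrial counts or doublets kept, the IPC call also with a finer clustering, and the excitatory call also with thinned cells, per-cell assignment or cycling progenitors left out.

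The noncoding RNAs of this domain carry microRNA genes. From the start of *Meg3* to the end of *Mirg*, RefSeq on GRCm38.p6 lists 57 microRNA genes on the plus strand, with 105 mature forms. Of the 57 genes, 2 lie within *Meg3* as annotated, 3 within *Rian* and 10 within *Mirg*. Of the 105 forms, 16 share their seed (bases 2 to 8) with another form of the domain, in 8 groups of 2. Mature microRNAs were not measured here. The mature sequences of 2 such pairs, the second within *Mirg*, are given with the seed in capitals.
mmu-miR-379-3p: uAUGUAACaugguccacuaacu
mmu-miR-411-3p: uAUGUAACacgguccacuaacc
mmu-miR-453: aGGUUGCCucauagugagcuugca
mmu-miR-496a-5p: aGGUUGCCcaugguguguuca

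The growth factor gene *Igf2* and its neighbour *H19* were highest in vascular cells. *Igf2*, usually expressed from the paternal allele, was at 0.456 and 0.813 CPM in RGCs, 0.438 and 1.34 in IPCs, 0.352 and 0.832 in excitatory neurons, 0.523 and 2.03 in interneurons and 1095 and 701 in vascular cells. The vascular difference of *Igf2* was 10.01 (SE 0.23, edgeR adjusted p = 2.16e-10), 9.11 without embryo 4 and 11.08 without embryo 5. Mural cells held 1279.8 and 858 CPM, fibroblasts 1085 and 886 and endothelial cells 9.84 and 111. The level in excitatory neurons was 0.0322% and 0.119% of the vascular level, beside 0.0184% and 0.118% for the fibroblast gene *Col3a1* and 0.0242% and 0.0358% for the mural gene *Rgs5*, and the part of free RNA in the neural counts was not tested. In cells thinned to 2000 UMIs, an *Igf2* UMI was seen in 84.6% (71.9 to 93.1%) and 76% (61.8 to 86.9%) of mural cells (95% binomial intervals, which cover the counting of cells within that embryo alone) and in 0.0535% (0.0110 to 0.156%) and 0.166% (0.0798 to 0.306%) of excitatory neurons. Unthinned, these shares were 100% and 96% at median depths of 10553 and 10262 UMIs, and 0.373% and 0.647% at 10715 and 9364. *H19*, a maternally expressed noncoding RNA, was at 5.60 and 6.71 CPM in RGCs, 2.19 and 2.20 in IPCs, 0.385 and 0.950 in excitatory neurons, 1.26 and 1.43 in interneurons and 71.6 and 202 in vascular cells. *H19* was highest in vascular cells of both embryos, and RGCs came next. Its vascular difference was 6.16 (SE 0.34, edgeR adjusted p = 9.42e-08), 5.36 without embryo 5, and it was lower by 1.83 (SE 0.46, edgeR adjusted p = 0.00472) in neurons against progenitors. *H19* was at 253 and 227 CPM in fibroblasts, 66.9 and 143 in mural cells and 0 and 256 in endothelial cells. With the embryo as a block, *H19* was also lower in IPCs than in RGCs, -1.41 (SE 0.40, edgeR adjusted p = 0.0150), and in excitatory neurons than in IPCs, -1.61 (SE 0.46, edgeR adjusted p = 0.0134), the latter -1.03 without embryo 4 and -2.28 without embryo 5.

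*Igf2r*, usually maternally expressed, encodes the receptor that carries IGF2 to the lysosome, and *Airn* is the paternally expressed RNA transcribed across it on the other strand. *Igf2r* was at 30.9 and 30.3 CPM in RGCs, 39.5 and 40.8 in IPCs, 26.8 and 26.9 in excitatory neurons, 25.2 and 19.4 in interneurons and 285 and 160.2 in vascular cells. Vascular cells of both embryos lay above all neural sums. *Igf2r* was higher by 2.77 (SE 0.16, edgeR adjusted p = 1.64e-07) in vascular against neural cells and lower by 0.39 (SE 0.13, edgeR adjusted p = 0.0234) in neurons against progenitors. The lower level in neurons was not called with cells of at least 500 genes or with the default doublet neighbourhood. With the embryo as a block, *Igf2r* was higher in IPCs than in RGCs, 0.47 (SE 0.16, edgeR adjusted p = 0.0392), and lower in excitatory neurons than in IPCs, -0.42 (SE 0.15, edgeR adjusted p = 0.0408). *Airn* was at 38.6 and 39.4 CPM in RGCs, 30.2 and 31.5 in IPCs, 36.4 and 33.6 in excitatory neurons, 23.1 and 14.7 in interneurons and 839 and 538 in vascular cells. Its vascular values exceeded those of every neural class in both embryos, and interneurons had the lowest. *Airn* rose by 4.40 (SE 0.14, edgeR adjusted p = 1.65e-09) in vascular against neural cells and fell by 1.03 (SE 0.20, edgeR adjusted p = 0.00301) in interneurons against excitatory neurons. The block gave a lower level in neurons than in progenitors as well, -0.30 (SE 0.12, edgeR adjusted p = 0.0455), -0.53 without embryo 4 and -0.11 without embryo 5. Mural cells held 957 and 863 CPM of *Airn* and 325 and 257 of *Igf2r*, and endothelial cells 522 and 379.9 and 148 and 158.

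**Figure D2:**
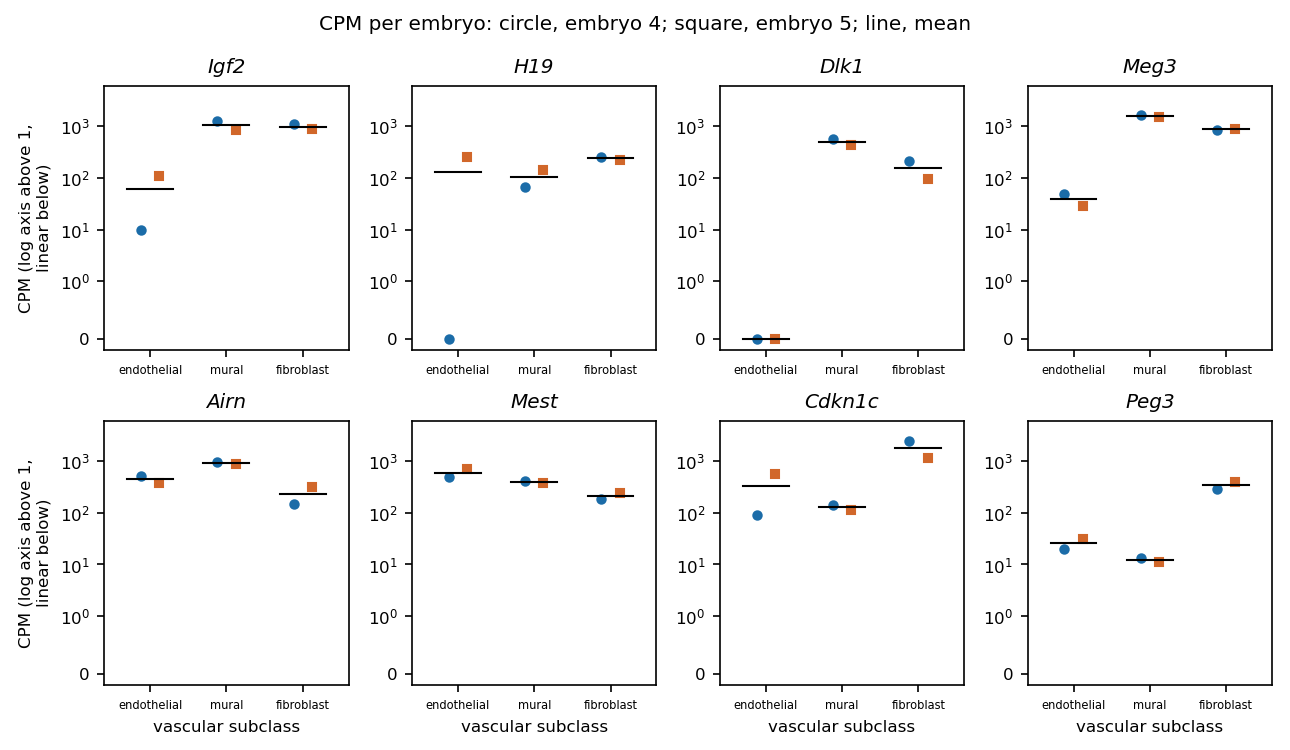
CPM of 8 members in endothelial cells, mural cells and fibroblasts of the vascular class. Circles are embryo 4 and squares embryo 5; fibroblasts of embryo 4 are 3 cells.

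The *Kcnq1ot1* domain on chromosome 7 holds the cell cycle gene *Cdkn1c*, whose product restrains cyclin-dependent kinases and which is maternally expressed. *Cdkn1c* was at 9.25 and 4.81 CPM in RGCs, 179.6 and 145 in IPCs, 96.3 and 89.5 in excitatory neurons, 94.3 and 95.2 in interneurons and 307 and 617 in vascular cells. Both embryos had under 10 CPM in RGCs and over 100 in IPCs. The log2 difference of *Cdkn1c* was 4.61 (SE 0.34, edgeR adjusted p = 2.13e-06) in IPCs against RGCs and 1.60 (SE 0.21, edgeR adjusted p = 5.65e-05) in neurons against progenitors. The second of these was not called with cells of at least 500 genes. With the embryo as a block *Cdkn1c* was lower in excitatory neurons than in IPCs, -0.65 (SE 0.24, edgeR adjusted p = 0.0453). The vascular difference of *Cdkn1c* was 2.98 (SE 0.21, edgeR adjusted p = 7.53e-07), and 2.18 without embryo 5. Fibroblasts held 2477 and 1142 CPM, endothelial cells 88.6 and 564 and mural cells 144 and 112. *Kcnq1ot1*, the paternally expressed noncoding RNA that silences the domain on its own chromosome, was at 158 and 159 CPM in RGCs, 292 and 311 in IPCs, 232 and 243 in excitatory neurons, 222 and 227 in interneurons and 171 and 276 in vascular cells. IPCs were the highest neural class in both embryos and RGCs the lowest. *Kcnq1ot1* was called in a single contrast, 1.01 (SE 0.15, edgeR adjusted p = 0.000407) in IPCs against RGCs.

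*Phlda2*, a maternally expressed gene that restrains placental growth, was at 0 and 0.136 CPM in RGCs, 0 and 0.122 in IPCs, 0.0481 and 0.0339 in excitatory neurons, 0 and 0 in interneurons and 0 and 1.42 in vascular cells. This rests on 10 UMIs in all. *Slc22a18*, a maternally expressed transporter gene, was at 0.130 and 0.203 CPM in RGCs, 0 and 0.122 in IPCs, 0.432 and 0.288 in excitatory neurons, 0.628 and 0.119 in interneurons and 2.65 and 0 in vascular cells. It had 59 UMIs in all, so neither gene was detected at a level that allows a comparison of classes.

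*Grb10* encodes an adaptor that dampens signalling by the insulin and IGF receptors, and its expressed allele depends on the tissue, paternal in neurons and maternal in most other cells. *Grb10* was at 331 and 326 CPM in RGCs, 224 and 215 in IPCs, 14.5 and 10.1 in excitatory neurons, 37.4 and 34.4 in interneurons and 470.4 and 385 in vascular cells. Progenitors and vascular cells of both embryos were high and both neuron classes low, without overlap. *Grb10* fell by 3.99 (SE 0.15, edgeR adjusted p = 1.07e-08) in excitatory neurons against IPCs and by 3.55 (SE 0.11, edgeR adjusted p = 6.15e-10) in neurons against progenitors. *Grb10* was also lower in IPCs than in RGCs, with a log2 difference of -0.50 (SE 0.14, edgeR adjusted p = 0.0130). That call was lost with doublets kept or with cells of at least 500 genes. *Grb10* was higher by 1.40 (SE 0.15, edgeR adjusted p = 5.50e-05) in interneurons against excitatory neurons. Among interneurons, *Grb10* was mostly in LGE-type cells. These held 69.3 and 76.9 CPM and MGE-type cells 11.7 and 6.84, and with LGE-type cells left out the interneuron difference of *Grb10* was -0.12. The vascular difference was 2.39 (SE 0.11, edgeR adjusted p = 3.02e-08), with 1284 and 465 CPM in fibroblasts, 432 and 365 in mural cells and 256 and 279 in endothelial cells.

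*Ddc*, next to *Grb10*, encodes the aromatic amino acid decarboxylase that makes dopamine and serotonin. *Ddc* was at 0.651 and 1.15 CPM in RGCs, 0.766 and 0.855 in IPCs, 0.272 and 0.102 in excitatory neurons, 3.35 and 3.82 in interneurons and 1.33 and 6.41 in vascular cells. Counts were low in all classes, highest in interneurons and, in embryo 5, vascular cells. *Ddc* differed by 4.06 (SE 0.54, edgeR adjusted p = 0.000211) in interneurons against excitatory neurons and by -1.91 (SE 0.66, edgeR adjusted p = 0.0333) in excitatory neurons against IPCs. The interneuron value of *Ddc* was 4.79 without embryo 4 and 3.35 without embryo 5; the excitatory value was -2.63 and -1.26, and its call was lost with at most 5% mitochondrial counts, with imprinted genes among the clustering genes or without cycling progenitors. The few interneuron UMIs were mostly in LGE-type cells. LGE-type cells held 7.14 and 7.72 CPM against 0.433 and 1.60 in MGE-type cells. The vascular difference was 2.30 (SE 0.68, edgeR adjusted p = 0.0148), 0.54 without embryo 5 and -0.0114 with mural cells alone, and the call was lost with the default doublet neighbourhood or fibroblasts alone; endothelial cells held 9.84 and 18.997 CPM. *Cobl*, which encodes an actin nucleator, was at 2.02 and 2.98 CPM in RGCs, 0 and 0 in IPCs, 1.51 and 2.02 in excitatory neurons, 17.1 and 8.96 in interneurons and 1.33 and 26.3 in vascular cells. IPCs of both embryos had 0 *Cobl* UMIs, and interneurons held the most among neural cells. Against a floor of 3 UMIs in IPCs over both embryos, *Cobl* was at least 14.4-fold lower in IPCs than in RGCs, at least 10.1-fold higher in excitatory neurons than in IPCs and at least 7.35-fold higher in neurons than in progenitors. The fit, whose values for a class at 0 rest on its prior count, gave -8.39 (SE 2.14, edgeR adjusted p = 0.0110) in IPCs against RGCs and 8.14 (SE 2.15, adjusted p = 0.0102) in excitatory neurons against IPCs, and 5.31 (SE 0.97, edgeR adjusted p = 0.000803) in neurons against progenitors. Leaving out cycling progenitors ended the IPC call and per-cell assignment the excitatory call. Without embryo 4 the values were -6.67, 6.35 and 4.02, and without embryo 5 they were -6.10, 5.92 and 4.53. With IPCs at 0 these values rest on another prior count than the fit, so their distance from it is not a measure of the embryos. *Cobl* was higher by 2.74 (SE 0.53, edgeR adjusted p = 0.00345) in interneurons against excitatory neurons, 1.999 without embryo 4 and 3.33 without embryo 5, a call lost without LGE-type cells, which held 34.7 and 16.7 CPM. In vascular cells *Cobl* had a fitted difference of 4.27 (SE 0.88, edgeR adjusted p = 0.00247), and of 3.31 from CPM with IPCs at the floor. Fibroblasts held 18.1 and 65.3 CPM. Without embryo 5 the vascular value was 0.17, and without fibroblasts the fitted value was -0.40. The vascular difference was not called with thinned cells or endothelial cells alone.

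*Plagl1*, a paternally expressed zinc finger transcription factor gene that restrains growth, was called lower in all 4 neural contrasts. Its direction in neurons against progenitors follows from the other neural contrasts. The share of all tested genes called lower in all 4 was not counted. It was at 223 and 217 CPM in RGCs, 63.9 and 67.7 in IPCs, 27.4 and 24.5 in excitatory neurons, 9.63 and 5.73 in interneurons and 49.03 and 47.7 in vascular cells. In both embryos its level fell from RGCs to IPCs and excitatory neurons, and interneurons were lower still. *Plagl1* fell by 1.66 (SE 0.12, edgeR adjusted p = 2.42e-06) in IPCs against RGCs, by 1.18 (SE 0.12, edgeR adjusted p = 1.66e-05) in excitatory neurons against IPCs and by 1.89 (SE 0.16, edgeR adjusted p = 7.16e-06) in interneurons against excitatory neurons. Across both neuron classes the fall was 2.95 (SE 0.10, edgeR adjusted p = 1.20e-09).

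**Figure D3:**
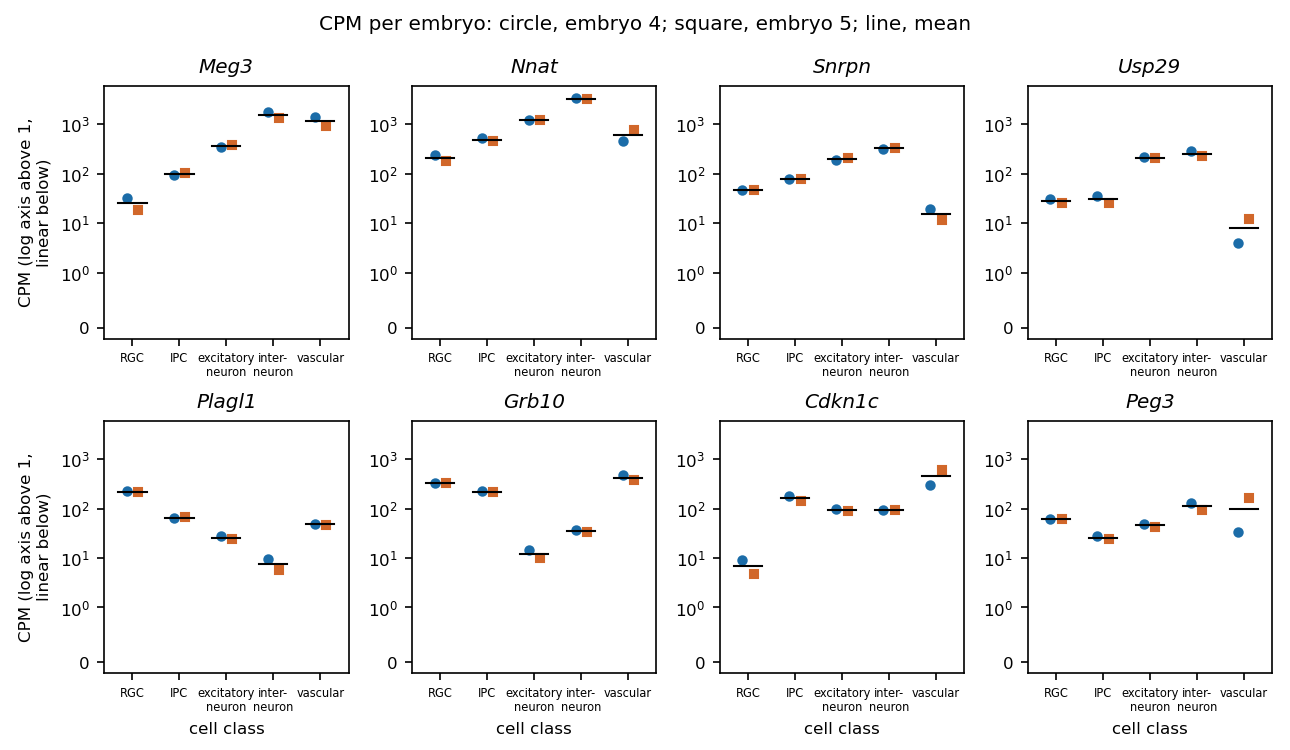
CPM of 8 members in the 5 classes. Circles are embryo 4, squares embryo 5 and the line their mean; the axis is logarithmic above 1 and linear up to 1.

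The *Peg3* domain on chromosome 7 combined genes with unlike patterns. *Peg3*, a paternally expressed zinc finger gene, was at 61.6 and 61.7 CPM in RGCs, 27.4 and 24.7 in IPCs, 49.3 and 42.2 in excitatory neurons, 130.3 and 94.4 in interneurons and 34.5 and 165 in vascular cells. Among neural cells both embryos were highest in interneurons and lowest in IPCs; the vascular values were 34.5 and 165, far apart. *Peg3* was lower by 1.16 (SE 0.36, edgeR adjusted p = 0.0229) in IPCs against RGCs and higher by 0.97 (SE 0.35, edgeR adjusted p = 0.0375) in excitatory neurons against IPCs and 0.97 (SE 0.24, adjusted p = 0.00405) in neurons against progenitors. The interneuron difference was 1.15 (SE 0.32, edgeR adjusted p = 0.0181). LGE-type cells held 220.4 and 162 CPM and MGE-type cells 60.6 and 49.95, and without LGE-type cells the calls against excitatory neurons and against progenitors were lost, at 0.31 and 0.54. The IPC, excitatory and interneuron calls were lost with cells of at least 500 genes or the default doublet neighbourhood; the excitatory and interneuron calls also with the DESeq2 test, the excitatory call with at most 5% mitochondrial counts, doublets kept or imprinted genes among the clustering genes, and the IPC call without cycling progenitors. In vascular cells the difference was 0.96 (SE 0.34, edgeR adjusted p = 0.0360), 1.65 without embryo 4 and -0.85 without embryo 5. Among vascular cells *Peg3* was highest in fibroblasts, which are few in embryo 4. Fibroblasts held 289 and 392 CPM, mural cells 13.4 and 11.2 and endothelial cells 19.7 and 31.7. With fibroblasts left out the vascular difference of *Peg3* was -1.78, with mural cells alone -2.20 and with endothelial cells alone -1.09; the call was also lost with the DESeq2 test, cells of at least 500 genes, at most 5% mitochondrial counts, a coarser clustering, imprinted genes among the clustering genes, per-cell assignment or the default doublet neighbourhood.

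*Usp29*, a paternally expressed deubiquitinase gene that shares a promoter region with *Peg3*, was at 30.4 and 26.01 CPM in RGCs, 34.9 and 25.8 in IPCs, 219 and 206 in excitatory neurons, 286 and 226 in interneurons and 3.98 and 12.1 in vascular cells. Neurons of both classes were several times above progenitors, and vascular cells lowest, in both embryos. *Usp29* rose by 2.96 (SE 0.17, edgeR adjusted p = 1.59e-07) in excitatory neurons against IPCs and 3.12 (SE 0.12, adjusted p = 2.81e-09) in neurons against progenitors. Its vascular difference was -3.26 (SE 0.31, edgeR adjusted p = 7.31e-06), -4.62 without embryo 5, with 1.67 and 3.72 CPM in mural cells and 18.1 and 25.4 in fibroblasts. *Zim1*, a maternally expressed zinc finger gene of the domain, was at 0.326 and 0.610 CPM in RGCs, 0.109 and 0.489 in IPCs, 1.52 and 1.90 in excitatory neurons, 6.91 and 2.03 in interneurons and 1.33 and 11.4 in vascular cells. Progenitors had under 1 CPM, and the embryos differed in interneurons and in vascular cells. *Zim1* was higher by 3.02 (SE 0.57, edgeR adjusted p = 0.000787) in neurons against progenitors and 2.69 (SE 0.91, adjusted p = 0.0295) in excitatory neurons against IPCs. Its values without embryo 4 were 1.93 and 2.06, and without embryo 5 they were 4.01 and 3.65; the call against IPCs was lost with thinned cells or cycling progenitors left out. The vascular difference of *Zim1* was 2.78 (SE 0.79, edgeR adjusted p = 0.0125), 0.55 without embryo 5, -0.75 without fibroblasts and not called in endothelial cells alone.

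The *Snrpn* and *Ube3a* domain, in the region whose human counterpart is lost in Prader-Willi and Angelman syndromes, was highest in neurons. *Snrpn*, a paternally expressed gene for a spliceosomal protein, was at 47.2 and 46.9 CPM in RGCs, 78.1 and 78.3 in IPCs, 187 and 211 in excitatory neurons, 325 and 333 in interneurons and 19.9 and 11.4 in vascular cells. Its values rose from RGCs to IPCs and excitatory neurons in both embryos, were highest in interneurons and lowest in vascular cells. *Snrpn* rose by 2.21 (SE 0.07, edgeR adjusted p = 1.01e-09) in neurons against progenitors and 1.51 (SE 0.10, adjusted p = 5.32e-07) in excitatory neurons against IPCs. It rose by 0.82 (SE 0.10, edgeR adjusted p = 0.000128) in IPCs against RGCs and 0.58 (SE 0.10, adjusted p = 0.000989) in interneurons against excitatory neurons, and was lower by 3.20 (SE 0.17, edgeR adjusted p = 8.04e-08) in vascular against neural cells. The IPC call of *Snrpn* was lost with doublets kept. Mural cells held 21.7 and 16.7 CPM and fibroblasts 0 and 3.63. *Snhg14*, the paternally expressed transcript that hosts small nucleolar RNAs and runs antisense to *Ube3a*, was at 41.9 and 36.2 CPM in RGCs, 43.8 and 38.6 in IPCs, 205 and 207 in excitatory neurons, 351 and 299.7 in interneurons and 26.5 and 9.26 in vascular cells. Progenitors of both classes were alike and neurons of both classes several times higher. *Snhg14* rose by 2.82 (SE 0.11, edgeR adjusted p = 3.22e-09) in neurons against progenitors and 2.48 (SE 0.16, adjusted p = 3.03e-07) in excitatory neurons against IPCs and by 0.51 (SE 0.14, edgeR adjusted p = 0.0176) in interneurons against excitatory neurons. Its vascular difference was -2.81 (SE 0.25, edgeR adjusted p = 4.45e-06), -3.46 without embryo 4 and -2.13 without embryo 5. Per-cell assignment ended the vascular call (-0.11) and that in interneurons, which was also lost with at most 5% mitochondrial counts or doublets kept. Endothelial cells held 108 and 9.50 CPM of *Snhg14* and mural cells 15.1 and 7.44.

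*Ube3a*, a ubiquitin ligase gene expressed from the maternal allele in neurons and from both elsewhere, was at 213 and 209 CPM in RGCs, 248 and 249 in IPCs, 296 and 279.8 in excitatory neurons, 393 and 336 in interneurons and 187 and 157 in vascular cells. Interneurons were highest and vascular cells lowest in both embryos, within a narrow range. *Ube3a* rose by 0.63 (SE 0.07, edgeR adjusted p = 8.25e-06) in neurons against progenitors and 0.37 (SE 0.09, adjusted p = 0.00599) in excitatory neurons against IPCs, and by 0.32 (SE 0.09, edgeR adjusted p = 0.0184) in IPCs against RGCs. In vascular cells it was lower by 0.78 (SE 0.09, edgeR adjusted p = 3.63e-05), with 192 and 158 CPM in mural cells. Its IPC call was lost with doublets kept, thinned cells, no filter on low counts or cycling progenitors left out. *Ndn*, a paternally expressed gene of the MAGE family, was at 116 and 106 CPM in RGCs, 85.1 and 82.8 in IPCs, 140.2 and 138 in excitatory neurons, 289 and 189.9 in interneurons and 43.7 and 78.3 in vascular cells. Interneurons were highest in both embryos, though more so in embryo 4, and vascular cells lowest. *Ndn* rose by 1.05 (SE 0.13, edgeR adjusted p = 3.19e-05) in neurons against progenitors and 0.89 (SE 0.18, adjusted p = 0.00200) in excitatory neurons against IPCs and by 0.63 (SE 0.18, edgeR adjusted p = 0.0200) in interneurons against excitatory neurons. Deep-layer neurons held 244 and 265 CPM and upper-layer neurons 62.7 and 58.6. LGE-type cells held 486 and 264 against 149 and 141 in MGE-type cells, and without them the interneuron difference of *Ndn* was -0.0147; per-cell assignment ended its call in excitatory neurons against IPCs. The vascular difference was -1.13 (SE 0.22, edgeR adjusted p = 0.00135), -1.81 without embryo 5, and was not called in fibroblasts alone, at 90.4 and 109 CPM. *Magel2*, a further paternally expressed MAGE gene, was at 0.651 and 0.745 CPM in RGCs, 0.547 and 0.122 in IPCs, 1.07 and 0.899 in excitatory neurons, 8.38 and 2.39 in interneurons and 0 and 0 in vascular cells. It was highest in interneurons of both embryos and listed at 0 in vascular cells. *Magel2* rose by 2.35 (SE 0.49, edgeR adjusted p = 0.00201) in neurons against progenitors and 2.30 (SE 0.52, adjusted p = 0.00824) in interneurons against excitatory neurons; the latter was 1.25 without embryo 4 and was not called without LGE-type cells, which held 18.1 and 3.86 CPM.

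*Nnat*, a paternally expressed gene for a small membrane protein of the endoplasmic reticulum, lies within an intron of *Blcap*. *Nnat* was at 239 and 184 CPM in RGCs, 529.7 and 461 in IPCs, 1240.5 and 1242 in excitatory neurons, 3421 and 3226 in interneurons and 468 and 772 in vascular cells. In both embryos RGCs were lowest, then IPCs, excitatory neurons and interneurons. *Nnat* rose by 2.78 (SE 0.15, edgeR adjusted p = 3.92e-08) in neurons against progenitors and 1.31 (SE 0.20, adjusted p = 0.000459) in IPCs against RGCs, and by 1.49 (SE 0.20, edgeR adjusted p = 0.000119) in excitatory neurons against IPCs and 1.27 (SE 0.20, adjusted p = 0.000704) in interneurons against excitatory neurons. LGE-type cells held 4420.2 and 3828 CPM, MGE-type cells 2838 and 2933 and CGE-type cells 2199 and 2559, so all 3 kinds of interneuron were high. The IPC call of *Nnat* was lost with doublets kept or cells of at least 500 genes. Its vascular difference was -0.47 (SE 0.17, edgeR adjusted p = 0.0395), -0.0699 without embryo 4 and -0.99 without embryo 5; it turned to 0.14 with per-cell assignment and 0.59 in fibroblasts alone, and the call was lost with cells of at least 500 genes, at most 5% mitochondrial counts, thinned cells or the default doublet neighbourhood. Fibroblasts held 1049 and 1499 CPM and endothelial cells 207 and 129.8. *Blcap*, which encodes a small protein and is expressed from both alleles in most tissues, was at 25.6 and 21.7 CPM in RGCs, 38.4 and 36.5 in IPCs, 51.8 and 48.3 in excitatory neurons, 121 and 103 in interneurons and 29.2 and 50.6 in vascular cells. Its neural classes had the order of those of *Nnat*, at lower counts. *Blcap* rose by 1.46 (SE 0.10, edgeR adjusted p = 2.27e-07) in neurons against progenitors and 0.75 (SE 0.15, adjusted p = 0.00214) in IPCs against RGCs, and by 0.58 (SE 0.14, edgeR adjusted p = 0.00470) in excitatory neurons against IPCs and 1.02 (SE 0.13, adjusted p = 0.000149) in interneurons against excitatory neurons. Its IPC call was lost with doublets kept or cells of at least 500 genes, and that in excitatory neurons with per-cell assignment or cycling progenitors left out.

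*Gnas* encodes the stimulatory G protein alpha subunit and further imprinted transcripts that 3′ counts do not separate. *Gnas* was at 882 and 879 CPM in RGCs, 604 and 604 in IPCs, 575 and 565 in excitatory neurons, 696 and 687 in interneurons and 2877 and 2039 in vascular cells. Vascular cells of both embryos were more than 2 times above every neural class, and RGCs were the highest neural class. *Gnas* was higher by 1.75 (SE 0.09, edgeR adjusted p = 6.55e-08) in vascular against neural cells and lower by 0.46 (SE 0.13, edgeR adjusted p = 0.0135) in IPCs against RGCs. Mural cells held 3331 and 2939 CPM, fibroblasts 2187 and 1762 and endothelial cells 581 and 991; in endothelial cells alone the difference was 0.0897 and was not called. *H13*, a maternally expressed gene for an intramembrane protease, was at 57.4 and 51.96 CPM in RGCs, 86.1 and 89.4 in IPCs, 90.2 and 91.8 in excitatory neurons, 106 and 103 in interneurons and 82.2 and 64.8 in vascular cells. RGCs were its lowest neural class in both embryos. *H13* rose by 0.62 (SE 0.06, edgeR adjusted p = 4.71e-06) in neurons against progenitors and 0.76 (SE 0.09, adjusted p = 5.56e-05) in IPCs against RGCs, and with the embryo as a block also in excitatory neurons against IPCs, 0.21 (SE 0.07, edgeR adjusted p = 0.0322). Its vascular difference was -0.30 (SE 0.10, edgeR adjusted p = 0.0330), a call lost under 9 of the other settings, among them the DESeq2 test, fibroblasts left out and per-cell assignment (-0.0221).

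The *Peg10* and *Sgce* domain lies on chromosome 6. *Peg10*, a paternally expressed gene derived from a retrotransposon and needed in the placenta, was at 13.4 and 10.4 CPM in RGCs, 1.31 and 3.79 in IPCs, 1.99 and 2.48 in excitatory neurons, 29.1 and 12.9 in interneurons and 14.6 and 12.1 in vascular cells. IPCs and excitatory neurons were low in both embryos, and RGCs, interneurons and vascular cells higher. *Peg10* differed by -2.17 (SE 0.46, edgeR adjusted p = 0.00355) in IPCs against RGCs and 3.09 (SE 0.36, adjusted p = 8.59e-05) in interneurons against excitatory neurons. The first of these was -1.38 without embryo 4 and -3.23 without embryo 5, and the second 2.23 and 3.70. LGE-type cells held 59.9 and 26.7 CPM of *Peg10*, MGE-type cells 6.28 and 4.11 and endothelial cells 49.2 and 28.5. *Sgce*, the paternally expressed gene for epsilon-sarcoglycan, was at 56.2 and 53.99 CPM in RGCs, 41.8 and 42.4 in IPCs, 56.3 and 54.1 in excitatory neurons, 99.9 and 92.5 in interneurons and 76.9 and 82.6 in vascular cells. Interneurons were highest and IPCs lowest in both embryos. *Sgce* rose by 0.73 (SE 0.06, edgeR adjusted p = 6.93e-07) in neurons against progenitors and 0.55 (SE 0.08, adjusted p = 0.000173) in excitatory neurons against IPCs and by 0.65 (SE 0.08, edgeR adjusted p = 7.66e-05) in interneurons against excitatory neurons, and fell by 0.31 (SE 0.08, edgeR adjusted p = 0.0116) in IPCs against RGCs. The vascular difference of *Sgce* was 0.34 (SE 0.09, edgeR adjusted p = 0.00864); it was not called without the filter on low counts, with a coarser clustering, with per-cell assignment, in endothelial or mural cells alone, or without fibroblasts. *Asb4*, a gene of the ankyrin repeat and SOCS box family, was at 1.24 and 1.69 CPM in RGCs, 0 and 0.855 in IPCs, 0.176 and 0.305 in excitatory neurons, 10.5 and 4.66 in interneurons and 7.95 and 15.7 in vascular cells. It was near 0 outside interneurons and vascular cells. *Asb4* was higher by 3.51 (SE 0.65, edgeR adjusted p = 0.000961) in vascular against neural cells and by 4.80 (SE 0.64, edgeR adjusted p = 0.000210) in interneurons against excitatory neurons. Endothelial cells held 59.1 and 69.7 CPM and mural cells and fibroblasts 0; the vascular difference was 3.81 without embryo 5 and -0.82 with the default doublet neighbourhood, which removes most endothelial cells. LGE-type cells held 25.2 and 11.9 CPM; the interneuron value was 3.69 without embryo 4, 5.55 without embryo 5 and, without LGE-type cells, 0.0867 and not called.

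*Mest*, a paternally expressed gene of the alpha/beta hydrolase fold, and *Copg2*, a coat protein gene on the other strand, share bases on chromosome 6. *Mest* was at 102 and 99.9 CPM in RGCs, 25.2 and 27.2 in IPCs, 31.3 and 30.5 in excitatory neurons, 82.6 and 54.1 in interneurons and 412 and 397 in vascular cells. Vascular cells were highest in both embryos, then RGCs and interneurons. *Mest* was higher by 2.95 (SE 0.12, edgeR adjusted p = 7.31e-09) in vascular against neural cells and lower by 1.86 (SE 0.16, edgeR adjusted p = 5.77e-06) in IPCs against RGCs. With the embryo as a block it was higher in excitatory neurons than in IPCs, 0.40 (SE 0.15, edgeR adjusted p = 0.0396). Endothelial cells held 492 and 699.7 CPM, mural cells 419.9 and 376 and fibroblasts 181 and 245. In interneurons the difference was 1.001 (SE 0.14, edgeR adjusted p = 0.000349); LGE-type cells held 159.5 and 113 and MGE-type cells 26.4 and 19.2, and without LGE-type cells it was -0.46. *Copg2*, reported as maternally expressed, was at 71.7 and 70.2 CPM in RGCs, 85.02 and 81.2 in IPCs, 80.5 and 78.3 in excitatory neurons, 96.7 and 84.1 in interneurons and 75.5 and 58.4 in vascular cells. Its values differed little between neural classes. *Copg2* rose by 0.27 (SE 0.06, edgeR adjusted p = 0.00302) in neurons against progenitors and 0.31 (SE 0.09, adjusted p = 0.0183) in IPCs against RGCs and was lower by 0.41 (SE 0.11, edgeR adjusted p = 0.0101) in vascular against neural cells. The vascular call of *Copg2* was lost with the default doublet neighbourhood, in endothelial or mural cells alone or without fibroblasts; the IPC call was lost with doublets kept, cells of at least 500 genes, no filter on low counts, a coarser clustering, thinned cells, the default doublet neighbourhood or cycling progenitors left out.

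*Impact*, a paternally expressed gene for an inhibitor of an amino acid-sensing kinase, was at 30.3 and 26.7 CPM in RGCs, 26.9 and 25.5 in IPCs, 31.3 and 31.4 in excitatory neurons, 35.5 and 34.04 in interneurons and 22.5 and 44.1 in vascular cells. Neurons were slightly above progenitors in both embryos. *Impact* rose by 0.40 (SE 0.10, edgeR adjusted p = 0.00422) in neurons against progenitors and 0.42 (SE 0.14, adjusted p = 0.0267) in excitatory neurons against IPCs. Both calls were lost with cycling progenitors left out, and that against IPCs with thinned cells. *Zrsr1*, a paternally expressed retrogene for a splicing factor that lies within an intron of *Commd1*, was at 9.06 and 6.84 CPM in RGCs, 9.52 and 12.6 in IPCs, 15.7 and 9.94 in excitatory neurons, 15.2 and 8.24 in interneurons and 17.2 and 9.26 in vascular cells. Embryo 4 exceeded embryo 5 in every class but IPCs. *Zrsr1* was not called; its difference in neurons against progenitors was 0.52 (SE 0.22, edgeR adjusted p = 0.0522), and with the embryo as a block 0.50 (SE 0.17, edgeR adjusted p = 0.0215), and it was 0.0995 without embryo 4 and 0.86 without embryo 5. *Commd1*, a gene of endosomal sorting that is mainly maternal in adult brain, was at 117 and 121 CPM in RGCs, 97.1 and 91.6 in IPCs, 52.5 and 52.9 in excitatory neurons, 58.1 and 64.9 in interneurons and 143 and 156 in vascular cells. It fell from RGCs to neurons in both embryos, and vascular cells were highest. *Commd1* was higher by 0.86 (SE 0.09, edgeR adjusted p = 1.33e-05) in vascular against neural cells and lower by 0.77 (SE 0.06, edgeR adjusted p = 1.16e-06) in neurons against progenitors and 0.68 (SE 0.09, adjusted p = 7.53e-05) in excitatory neurons against IPCs. It differed by -0.25 (SE 0.09, edgeR adjusted p = 0.0405) in IPCs against RGCs, a call lost with cells of at least 500 genes, at most 5% mitochondrial counts, doublets kept, thinned cells or cycling progenitors left out, and in endothelial cells alone the vascular difference was 0.42 and not called.

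*Inpp5f*, a phosphoinositide phosphatase gene with a paternally expressed brain transcript, was at 60.8 and 59.9 CPM in RGCs, 41.4 and 45.7 in IPCs, 113 and 113 in excitatory neurons, 139 and 119 in interneurons and 54.3 and 39.9 in vascular cells. Both neuron classes stood above progenitors in both embryos. *Inpp5f* rose by 1.54 (SE 0.10, edgeR adjusted p = 4.22e-07) in excitatory neurons against IPCs and 1.36 (SE 0.07, adjusted p = 2.67e-08) in neurons against progenitors. It was lower by 0.39 (SE 0.10, edgeR adjusted p = 0.0111) in IPCs against RGCs and 0.89 (SE 0.13, adjusted p = 0.000205) in vascular against neural cells; the IPC call was lost with per-cell assignment and the vascular call with thinned cells. *Peg13*, a paternally expressed noncoding RNA in an intron of *Trappc9*, was at 3.65 and 3.86 CPM in RGCs, 8.21 and 7.57 in IPCs, 31.1 and 31.3 in excitatory neurons, 36.5 and 32.9 in interneurons and 1.33 and 3.56 in vascular cells. It rose from RGCs to IPCs and excitatory neurons in both embryos, and vascular cells held few UMIs. *Peg13* rose by 2.72 (SE 0.09, edgeR adjusted p = 8.09e-10) in neurons against progenitors and 2.14 (SE 0.12, adjusted p = 1.23e-07) in excitatory neurons against IPCs and by 1.15 (SE 0.16, edgeR adjusted p = 0.000177) in IPCs against RGCs. With doublets kept its IPC difference turned to -0.0236. The vascular difference of *Peg13* was -2.36 (SE 0.32, edgeR adjusted p = 0.000112), -3.45 without embryo 5, and was not called with per-cell assignment, thinned cells or fibroblasts alone. *Trappc9*, a gene of vesicle tethering that is mainly maternal in brain, was at 74.9 and 101 CPM in RGCs, 104 and 115 in IPCs, 103 and 106 in excitatory neurons, 102 and 104 in interneurons and 127 and 76.2 in vascular cells. Its values in the 5 classes stood close together, and with the embryo as a block alone it was higher in IPCs than in RGCs, 0.40 (SE 0.15, edgeR adjusted p = 0.0474).

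Split by usual allele, the paternal and maternal members did not share a direction in every contrast. Of the 20 tested paternally expressed members, 7 were higher and 7 lower in vascular cells, 12 were higher and 1 lower in neurons against progenitors and 5 were higher and 6 lower in IPCs. Against IPCs, 11 were higher and 1 lower in excitatory neurons, and 11 were higher and 2 lower in interneurons against those neurons. Of the 10 tested maternally expressed members, 7 were higher and 2 lower in vascular cells, 7 were higher and 2 lower in neurons against progenitors and 6 were higher and 0 lower in IPCs. In excitatory neurons 4 were higher and 0 lower and in interneurons 3 were higher and 0 lower. *Meg3*, *Rian* and *Mirg* are 3 of the 10 and were higher in all 5 contrasts. Over all tested genes the shares were 27.0% and 25.2%, 36.3% and 31.9%, 21.0% and 21.4%, 27.5% and 24.5% and 14.0% and 17.6%. Whether the allele groups differ was not tested.

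In interneurons 31 of 40 members were higher in embryo 4 and 8 in embryo 5, with a median log2 ratio of CPM + 1 of 0.23. *Dlk1*, *Zim1* and *Magel2* were among the 5 members past 2-fold there, each with its highest interneuron level in LGE-type cells of embryo 4. In RGCs 25 members were higher in embryo 4 and 15 in embryo 5, and in excitatory neurons 19 and 21, with no member past 2-fold in either class; in IPCs the counts were 13 and 26, with 1 past 2-fold. Vascular cells had 11 members past 2-fold, among them *Peg3* and *Cobl*, which fibroblasts hold. Of all tested genes, 57.4% and 41.8% were higher in embryos 4 and 5 in interneurons, with a median of 0.0434, 52.2% and 47.1% in RGCs, 54.4% and 45.5% in excitatory neurons and 50.99% and 47.5% in IPCs; 1.15% were past 2-fold in interneurons and 18.8% in vascular cells.

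Members of some domains moved together over the 10 sums of class and embryo. Over 41 pairs from the same domain, the median Pearson correlation of log2(CPM + 1) was 0.82 (range -0.60 to 0.98), and over 739 pairs from different domains 0.20. Over the 8 neural sums alone the medians were 0.76 and 0.33. The *Dlk1*-*Meg3* and *Snrpn*-*Ube3a* domains, with 5 members each, give more of the same-domain pairs than any other domain and weigh most in these medians. The sums share libraries, and both sums of a class share its cell type, so the values are a description. *Meg3* and *Rian* had r = 0.98, and *Snrpn* and *Snhg14*, which overlap on the same strand, had r = 0.97. *Nnat* and *Blcap* had r = 0.97. *Igf2r* and *Airn* had r = 0.98 over all sums and 0.62 over the neural sums, and *H19* and *Igf2* 0.93 and -0.00320. Unlike these, *Mest* and *Copg2* had r = -0.60 over all sums and -0.26 over the neural sums, *Zrsr1* and *Commd1* -0.24 and -0.61, and *Peg3* and *Usp29* 0.24 and 0.57. The part of overlapping reads in these was not tested.

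Promoter windows of 300 bases were available for 32 members. The motif TGCCGC, bound by the imprint protector ZFP57 when methylated and read here on both strands (GCGGCA is its reverse complement), was present in 10 of the 32 members (31.2%) and in 3527 of 27025 genes (13.1%). Members have more windows per gene; by window the shares were 22.4% of 49 and 11.6% of 32851. The windows of these members had a median GC content of 55.3% and 13 CpG dinucleotides, against 52.7% and 7 over all genes. A match is a description of the sequence and does not show binding or methylation. Of the *Meg3* windows, that at chr12:109545148-109545447 has 0 matches. The one shown, from RefSeq on GRCm38.p6 at chr12:109540746-109541045 on the plus strand, has the motif in capitals.
Meg3: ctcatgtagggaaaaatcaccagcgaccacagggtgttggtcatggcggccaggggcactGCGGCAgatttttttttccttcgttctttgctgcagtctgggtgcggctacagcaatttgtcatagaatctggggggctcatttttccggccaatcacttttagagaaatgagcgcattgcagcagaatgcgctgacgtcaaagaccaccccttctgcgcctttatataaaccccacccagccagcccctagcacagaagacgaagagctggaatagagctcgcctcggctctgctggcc

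Of 43 other imprinted genes, 35 were tested. In vascular cells 14 higher and 9 lower were called, in neurons against progenitors 16 higher and 12 lower, in IPCs 8 higher and 9 lower, in excitatory neurons 11 higher and 11 lower and in interneurons 10 higher and 5 lower. Over all tested genes the shares were 27.0% and 25.2%, 36.3% and 31.9%, 21.0% and 21.4%, 27.5% and 24.5% and 14.0% and 17.6%. Their median log2 differences were 0.19, 0.32, -0.11, -0.15 and 0.48 as fitted. With genes that had a class at 0 set to the floor of 3 UMIs, or to 0 where the floor turned the sign (6 of 7 in the vascular contrast), the IPC median was 0 and the others were as fitted. *Dcn*, a matrix proteoglycan gene, was at 228 and 747 CPM in vascular cells, with a difference of 8.64 (SE 0.38, edgeR adjusted p = 1.69e-08), 9.13 without embryo 4 and 7.57 without embryo 5. It was the first leading gene of the fibroblast cluster, which held 3 and 51 cells. Vascular levels of *Dcn*, *Slc38a4* and *Kcnq1* are not given by subtype here, so which vascular cells hold them is not shown. The amino acid transporter gene *Slc38a4* had a vascular difference of 7.46 (SE 0.52, edgeR adjusted p = 6.01e-07) and the potassium channel gene *Kcnq1* 5.45 (SE 0.43, edgeR adjusted p = 1.51e-06). *Gabra5*, a GABA receptor gene, was at 0 in vascular cells, where the floor of 3 UMIs allows no bound, with a fitted difference of -7.63 (SE 2.39, edgeR adjusted p = 0.0300), -5.53 without embryo 4 and -5.83 without embryo 5. It rose by 5.32 (SE 0.25, edgeR adjusted p = 3.67e-08) in neurons against progenitors and by 4.68 (SE 0.35, edgeR adjusted p = 2.90e-06) in excitatory neurons against IPCs. *Rasgrf1*, which encodes a Ras exchange factor, was at 1.17 and 0.474 CPM in RGCs, 0 and 0.122 in IPCs, 14.9 and 15.7 in excitatory neurons, 3.25 and 1.31 in interneurons and 0 and 0 in vascular cells. *Rasgrf1* differed by 4.81 (SE 0.47, edgeR adjusted p = 9.59e-06) in neurons against progenitors, -3.61 (SE 1.20, edgeR adjusted p = 0.0360) in IPCs against RGCs, 8.05 (SE 0.65, edgeR adjusted p = 4.81e-06) in excitatory neurons against IPCs and -2.87 (SE 0.34, edgeR adjusted p = 0.000164) in interneurons. Without embryo 4 these were 4.20, -1.67, 6.88 and -3.69, and without embryo 5 they were 5.37, -5.33, 9.21 and -2.35; IPCs held 0 and 1 *Rasgrf1* UMIs.

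*Htr2a*, a serotonin receptor gene, rose by 5.12 (SE 0.34, edgeR adjusted p = 2.23e-07) in neurons against progenitors and by 4.61 (SE 0.51, edgeR adjusted p = 2.40e-05) in excitatory neurons against IPCs. *Zim3* held 0 UMIs in IPCs and 1 and 1 in RGCs; it was at least 7.04-fold higher in excitatory neurons than in IPCs. The fitted differences of *Zim3* were 6.05 (SE 0.70, edgeR adjusted p = 6.46e-05) in neurons against progenitors and 7.61 (SE 1.25, edgeR adjusted p = 0.000959) in excitatory neurons against IPCs. The values without embryo 4, which are no refits, were 4.56 and 5.68, and those without embryo 5 were 5.07 and 5.58. In IPCs against RGCs *Ins2* differed by 4.63 (SE 1.44, edgeR adjusted p = 0.0278), which rests on 1 and 15 UMIs in IPCs and 0 and 1 in RGCs and was 4.33 without embryo 4 and 2.29 without embryo 5. Other differences there were those of *Osbpl5* at 3.21 (SE 0.16, edgeR adjusted p = 1.41e-07) and *Pon2* at -3.17 (SE 0.27, edgeR adjusted p = 7.55e-06). In interneurons *Th* rose by 5.33 (SE 0.73, edgeR adjusted p = 0.000680), 6.47 without embryo 4 and 4.16 without embryo 5, the GABA receptor gene *Gabrg3* by 3.64 (SE 0.21, edgeR adjusted p = 3.42e-07), and *Pon3* differed by -3.07 (SE 0.94, edgeR adjusted p = 0.0295), -4.11 without embryo 4 and -2.22 without embryo 5.

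A further 14 genes, all tested, encode factors tied to the setting, keeping, reading or removal of imprints. Of these, 3 higher and 10 lower were called in vascular cells and 4 higher and 8 lower in neurons against progenitors. In IPCs 4 higher and 7 lower were called, in excitatory neurons 1 higher and 4 lower and in interneurons 4 higher and 1 lower. The shares over all tested genes are those given for the other imprinted genes. Their medians in this order were -0.43, -0.19, -0.34, -0.12 and 0.07. *Uhrf1*, which guides DNA methylation to newly copied DNA, was at 69.4 and 74.99 CPM in RGCs, 26.7 and 30.1 in IPCs, 2.19 and 2.002 in excitatory neurons, 4.40 and 4.30 in interneurons and 37.1 and 24.9 in vascular cells. It was high in progenitors, whose clusters include cycling cells, and low in neurons of both embryos. *Uhrf1* differed by -3.77 (SE 0.10, edgeR adjusted p = 2.48e-10) in neurons against progenitors, -1.27 (SE 0.11, edgeR adjusted p = 8.47e-06) in IPCs against RGCs and -3.59 (SE 0.13, edgeR adjusted p = 7.66e-09) in excitatory neurons against IPCs. It was higher by 0.90 (SE 0.18, edgeR adjusted p = 0.00341) in interneurons against excitatory neurons and by 1.24 (SE 0.18, edgeR adjusted p = 0.000204) in vascular cells. *Zfp57*, which encodes the zinc finger protein that binds TGCCGC, was at 12.5 and 10.8 CPM in RGCs, 26.5 and 29.2 in IPCs, 65.98 and 63.1 in excitatory neurons, 75.5 and 76.1 in interneurons and 15.9 and 17.1 in vascular cells. *Zfp57* rose by 2.09 (SE 0.07, edgeR adjusted p = 8.92e-10) in neurons against progenitors, 1.34 (SE 0.11, edgeR adjusted p = 3.86e-06) in IPCs against RGCs and 1.37 (SE 0.09, edgeR adjusted p = 5.12e-07) in excitatory neurons against IPCs, and was lower in vascular cells, -1.19 (SE 0.16, edgeR adjusted p = 0.000114).

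The methyltransferase gene *Dnmt3a* was at 122 and 136 CPM in RGCs, 44.3 and 44.2 in IPCs, 20.6 and 24.3 in excitatory neurons, 74.9 and 77.05 in interneurons and 96.7 and 107 in vascular cells. *Dnmt3a* differed by -0.74 (SE 0.08, edgeR adjusted p = 6.58e-06) in neurons against progenitors, -1.46 (SE 0.11, edgeR adjusted p = 2.41e-06) in IPCs against RGCs, -0.82 (SE 0.11, edgeR adjusted p = 9.60e-05) in excitatory neurons against IPCs and 1.61 (SE 0.11, edgeR adjusted p = 1.09e-06) in interneurons against excitatory neurons. *Dnmt1*, the maintenance methyltransferase gene, had a log2 difference of -0.55 (SE 0.12, edgeR adjusted p = 0.00429) in IPCs against RGCs, with 86.2 and 97.1 CPM in RGCs and 62.3 and 56.2 in IPCs. *Smchd1* had differences of -0.66 (SE 0.07, edgeR adjusted p = 5.36e-06) in neurons against progenitors and -0.46 (SE 0.09, edgeR adjusted p = 0.00173) in excitatory neurons against IPCs. In vascular cells *Dnmt3b* differed by 1.03 (SE 0.32, edgeR adjusted p = 0.0199), 1.27 without embryo 4 and 0.62 without embryo 5. That value rests on 5 and 13 *Dnmt3b* UMIs in vascular cells. *Setdb1* differed there by -0.81 (SE 0.15, edgeR adjusted p = 0.000882). In interneurons *Tet3* differed by 0.30 (SE 0.09, edgeR adjusted p = 0.0235) and *Ctcf* by -0.26 (SE 0.09, edgeR adjusted p = 0.0405).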

How the data were processed

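Single-cell RNA was counted in the cortex of 2 wild-type E16.5 mouse embryos. The authors deposited raw UMI counts per gene and barcode; the file header names Cell Ranger 7.1.0, the submitters' notes name Cell Ranger 7.0.0 and mm10, and whether introns were counted is not stated. Barcodes with fewer than 1000 genes or over 10% mitochondrial counts were removed, and doublets were scored against 2 simulated doublets per cell with 8 neighbours. Cells were clustered in Python 3.11.15 (scanpy 1.11.5, leidenalg 0.10.2, scikit-learn 1.9.0) on 2000 variable genes, 30 components and 20 neighbours at resolution 1, without 97 imprinted and imprint-factor genes, and clusters were named by marker lists. The naming rule and the doublet neighbourhood were chosen after the data were seen. The 40 members and the lists were chosen with earlier results of these data known. UMIs were summed per embryo and class and fitted together in R 4.3.3 with edgeR 4.0.16 (TMM, filterByExpr, glmQLFit; 5 contrasts, 16637 genes, Benjamini-Hochberg). All sums of an embryo come from the same animal and are paired; deviations of 2 classes from their means correlated at r = 0.023 to 0.201 over 16637 genes. The fit with the embryo as a block, DESeq2 1.42.0 and other cell filters were alternatives. All members were named, with tests where called; of the 2 further lists, the 4 largest called differences per contrast. The edgeR step was tested on simulated data, and the outcome of that test is not given here.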

Additional observations from a re-analysis of the deposited data

How the results depend on the processing

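Of the 123 called member and contrast pairs, 69 kept their direction and stayed under the adjusted p limit in every one of the 20 other settings in which they could be tested, and 84 did so over the settings that left the vascular and interneuron classes and the progenitors whole. The embryo as a replicate block kept all 123; it added 10 member calls, took the members lower in excitatory neurons against IPCs from 4 to 7 (over all tested genes 24.5% to 26.7%), and changed no other call. DESeq2 size factors and leaving out shared barcodes ended no call. Counts that moved by over 1.5 times were the members higher in vascular cells, 20 against 10 with endothelial cells alone, and those lower there, 10 against 6 with per-cell assignment and 6 with cells thinned to 2000 UMIs. Members higher in IPCs against RGCs went from 13 to 8 with cells of at least 500 genes and to 3 with doublets kept, and members lower in excitatory neurons against IPCs from 4 to 7 without the filter on low counts. Members higher in interneurons against excitatory neurons went from 19 to 12 without LGE-type cells, and those lower from 2 to 4 with per-cell assignment. In this order, the shares of all tested genes went from 27.0% to 14.6%, 25.2% to 17.7% and 18.2%, 21.0% to 18.5% and 13.8%, 24.5% to 15.0%, 14.0% to 13.5% and 17.6% to 15.6%. The median correlation of neighbours went from 0.82 to 0.76 over neural classes alone. In vascular cells against the neural classes, endothelial cells alone turned *Meg3* to -2.73, *Rian* to -2.49 and *Peg3* to -1.09; mural cells alone turned *Peg3* to -2.20 and *Ddc* to -0.0114; leaving out fibroblasts turned *Peg3* to -1.78, *Zim1* to -0.75 and *Cobl* to -0.40. There, *Nnat* turned to 0.14 with per-cell assignment and 0.59 with fibroblasts alone, and *Asb4* to -0.82 with the default doublet neighbourhood. On leaving out an embryo, the vascular value of *Peg3* ranged from -0.85 (without embryo 5) to 1.65. It was the only reversal among 246 such values of the called pairs, where a call itself favours agreement. In IPCs against RGCs, doublets kept turned *Meg3* to -0.14 and *Peg13* to -0.0236. In interneurons against excitatory neurons, leaving out LGE-type cells turned *Mest* to -0.46, *Ndn* to -0.0147 and *Grb10* to -0.12. For these changes the cause was not tested. No value was given, because a class was at 0 or the gene was filtered out, for *Mirg*, *Dlk1* and *Rtl1* in endothelial cells alone, for *Zim1*, *Asb4* and *Cobl* in mural cells alone, for *Asb4* in fibroblasts alone, for *Zim1* and *Magel2* in neurons without cycling progenitors, and with thinned cells for *Asb4* and *Ddc* in vascular cells, *Magel2* in neurons and interneurons and *Ddc* in excitatory neurons and interneurons. The vascular class is small: it holds 78 and 135 cells, 3 of them fibroblasts in embryo 4, so its values carry the make-up of few cells. The spread rests on 2 embryos, with 5 residual degrees of freedom, and members under a few CPM, such as *Ddc*, *Zim1* and *Magel2*, rest on few UMIs.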

Other observations

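Cells outside the 5 classes also held members. Cajal-Retzius-like cells, 123 and 105 in embryos 4 and 5, had *Meg3* at 1144 and 1345 CPM, *Nnat* at 2318 and 2947, *Snrpn* at 174 and 207 and *Ndn* at 251 and 228; their cluster also held the choroid plexus gene *Ttr* among its leading genes. A cluster of 111 and 76 cells, with *Sst* among its leading genes, had erythroid markers at 49669 CPM in embryo 4 and 1415 in embryo 5, the latter under the 3738 of IPCs; it had *Nnat* at 3477 and 4472 CPM, *Meg3* at 48.4 and 9.63 and *Peg3* at 68.8 and 19.3.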
